A study of Mus musculus with 16 samples.

Results

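The atria of mice were compared between 7 days after myocardial infarction and sham surgery on 8 of the 16 expression arrays of the series. The infarction group holds arrays 71, 72, 73 and 74 (MI 7d in the labels) and the sham group holds arrays 1, 2, 3 and 4 (Con). All animals were male wild-type C57BL/6 mice aged 10 weeks, and no transgene or drug is named in either group. In the infarction group the left anterior descending coronary artery, which feeds the front wall of the left ventricle, had been tied off. Whether the atria themselves were also injured was not tested. The labels do not state when sham tissue was taken, which atrium was used or whether animals were pooled. Each array is labelled as a sample of its own, and p-values measure the spread between these samples. The other 8 arrays come from 1 and 3 days after infarction and enter only where days are compared.

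The atria are thin-walled chambers that fill the ventricles and act as an endocrine organ through the natriuretic peptides. After a large infarct the failing left ventricle raises the filling pressure, and the atrial wall is stretched. Repair of injured heart tissue is known to run from an early wave of neutrophils to monocytes and macrophages, and then to fibroblasts that divide, turn into myofibroblasts and lay down collagen. Atrial muscle cells meet their energy need mainly by burning fatty acids in mitochondria, and loss of that programme and deposition of collagen between the fibres are both textbook features of a remodelled atrium. The question behind the comparison, from the series title and groups, is how gene activity in the atria responds to an infarct of the ventricle.

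Values are the deposited log2 signals, so every level and every difference below is on the log2 scale of that signal and is not turned into a fold. Levels are means ± SD over n = 4 arrays, and differences are MI day 7 minus sham ± SE of the fit. To be tested, a gene had to exceed its array's median on 4 or more of the 8 arrays. That kept 17562 of 30063 genes, of which 98 passed through the day 7 arrays alone and had to be higher there, and 28 through the sham arrays alone and had to be lower. Each of the lists below for elastic fibres, proteases, activated fibroblasts, interferon response and innate sensors held 1 of the 98. The ion channel list held 1 of the 28. Called means an adjusted p under 0.05 in limma over all 17562 genes. Of these 3776 were called higher (21.5%) and 3368 lower (19.2%), 40.7% in all, and 8.34% were called with a difference of at least 1 in either direction. The median difference over all tested genes was -0.01. The larger changes were mostly upward: 1069 genes rose by at least 1 (6.09%) and 395 fell by at least 1 (2.25%), and 268 rose against 19 that fell by at least 2. The authors' scaling bears on the balance of directions: 52.9% of calls were upward as deposited, 45.5% after quantile normalization and 36.1% with each array centred on its median, which moves every difference by -0.10. The 4 values of a group did not overlap those of the other in 39.7% of genes, 20.6% higher and 19.1% lower. Positive controls on the arrays were told from negative ones to a like degree, on a scale where 1 is complete: the separation was 0.812 to 0.821 on the sham arrays and 0.813 to 0.823 on the day 7 arrays, and the groups gave p = 0.771 in a two-sided exact permutation test (0.771 adjusted over 4 such measures).

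The tissue label was checked against atrial markers. Nppa, the gene of atrial natriuretic peptide, lay at 19.93 on all 8 arrays, the highest value among all genes, so no difference can be read from it. Myl7, the atrial myosin light chain gene, lay at 17.97 ± 0.28 and Sln, the gene of the atrial calcium pump inhibitor sarcolipin, at 17.97 ± 0.19 in sham. Of 15 genes of lung, airway and thymus on the array, tissues that a dissection could carry, 12 were not above the median negative control on any of the 8 arrays. Of the tested genes 51 sat on such a plateau at the top of the scale, and 81 took the same value to within 0.01 on all 4 arrays of at least 1 group. Among the latter were abundant muscle genes such as Tpm1 and Mb, whose rows moved by less than 0.02 between groups, so that a lack of difference in such genes says nothing about the RNA.

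The largest rises were in genes of scar matrix. Fn1, which encodes fibronectin, the glycoprotein on which early scar matrix is assembled, read 8.77, 8.49, 8.61 and 8.56 on the sham arrays and 15.79, 15.96, 14.76 and 16.66 on arrays 71 to 74. All 4 day 7 values lay far above all sham values, and array 73 was the lowest of them. The difference was 7.18 ± 0.34 (adjusted p 3.85e-06). Postn encodes periostin, a matricellular protein secreted by activated fibroblasts, and read 12.31, 11.35, 12.29 and 11.92 in sham and 18.70, 18.83, 18.78 and 19.06 after infarction. The day 7 arrays agreed closely among themselves and did not overlap sham, and the difference was 6.87 ± 0.20 (adjusted p 4.28e-07).

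The genes of the main scar collagens followed. Col1a1, one of the chains of collagen type I, read 7.19, 6.97, 6.84 and 6.67 in sham and 13.81, 13.54, 12.65 and 14.60 after infarction, a difference of 6.73 ± 0.35. Its partner chain gene Col1a2 rose by 6.19 ± 0.30 and Col3a1, the gene of collagen type III, by 6.54 ± 0.26, from 8.35 ± 0.38 to 14.90 ± 0.49. In all 3 genes array 73 was the lowest and array 74 the highest of the day 7 arrays, and no value overlapped sham. Of the 17 tested genes of the list of fibrillar and fibril-associated collagens, which also holds types VI and VIII, collagens of filaments and networks, 13 rose and 0 fell, with a median difference of 2.13 against -0.01 over all genes, and 11 of them rose by at least 1. Col12a1 (4.00 ± 0.27), Col14a1 (4.01 ± 0.23) and Col8a1 (4.13 ± 0.25) were next after types I and III. The collagen type V and VI genes Col5a2, Col5a1, Col6a1, Col6a2 and Col6a3 rose by 3.93, 1.55, 2.37, 1.64 and 2.13. Another 4 of 21 such genes on the array did not reach the level needed for a test, and 1 of the 17 reached it through the day 7 arrays alone.

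**Figure D1:**
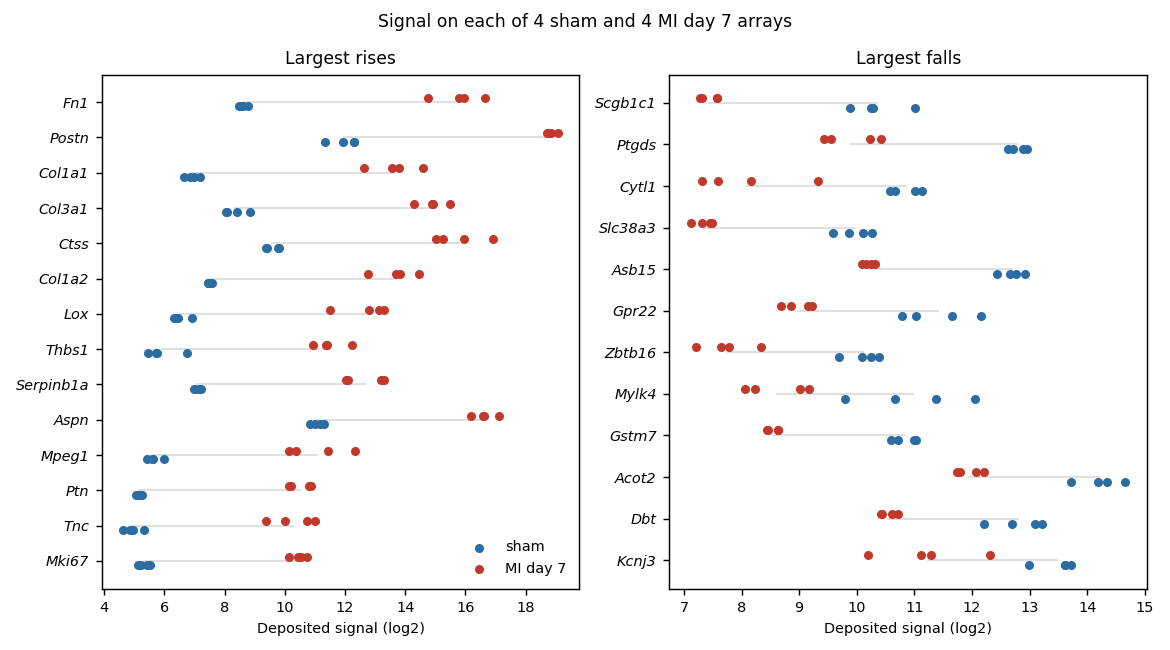
Deposited log2 signal (x axis) on each of the 4 sham (blue) and 4 MI day 7 (red) arrays for the 14 largest rises and the 12 largest falls, each a row, with a grey line between the group means. The groups do not overlap in any row, which the choice of genes required. Kcnj3 and Cytl1 show the widest day 7 spread among the falls, with array 73 nearest to sham.

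Matricellular proteins and matrix glycoproteins are secreted into the matrix, where they steer cells more than they bear load. Of 25 tested genes of this kind 22 rose and 0 fell, with a median of 2.39. Tnc, which encodes tenascin C, a protein of wounds and of the border of infarcts, rose from 4.94 ± 0.28 to 10.28 ± 0.74, and Thbs1, a thrombospondin gene whose product releases active TGF-beta, by 5.56 ± 0.34. Sparc, which encodes a collagen-binding protein, rose by 2.71 ± 0.11, and the connective tissue growth factor gene Ccn2 by 2.87 ± 0.30. Cilp, the gene of a matrix protein of cartilage that scarred hearts also make, rose by 4.22 ± 0.36, and Thbs4, a thrombospondin gene of tendon and heart, by 4.28 ± 0.42. Genes shared with cartilage and bone matrix rose in 5 of 8 and fell in 0, Comp by 1.47 ± 0.25 and Mgp by 1.59 ± 0.17, while Col2a1, the collagen of cartilage itself, was not above background on any sham array and was not called. Tnxb had the lowest difference of the list, at -0.08 ± 0.10, and was not called.

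Enzymes that mature collagen rose with the collagens, 21 of 26 tested and 0 called lower (median 0.69). Lox, which encodes lysyl oxidase, the enzyme that cross-links collagen and elastin, read 6.92, 6.46, 6.33 and 6.38 in sham and 12.79, 13.30, 11.50 and 13.13 after infarction. No value overlapped, and the difference was 6.15 ± 0.36. Its relatives Loxl1 and Loxl3 rose by 3.35 ± 0.26 and 2.42 ± 0.28, and Bmp1, which encodes a protease that trims procollagen, by 2.10 ± 0.20.

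The secretory route of the cell carries these products. Of 28 genes of folding and transport in the endoplasmic reticulum 12 rose and 3 fell, with Kdelr3 and Kdelr2, receptors that return escaped chaperones, at 1.73 ± 0.18 and 1.47 ± 0.22 and P4hb, a subunit of the enzyme that hydroxylates collagen, at 1.63 ± 0.08. Herpud1, which encodes a stress-induced membrane protein of that compartment, fell by 1.96 ± 0.17.

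Of 16 tested genes of elastic fibres and microfibrils 12 rose and 1 fell (median 0.92). Eln, the elastin gene, rose from 7.20 ± 0.08 to 10.90 ± 0.37, Fbln5, which encodes a protein needed for elastic fibre assembly, by 3.60 ± 0.16, and the microfibril gene Mfap4 by 3.78 ± 0.14. Of 11 small leucine-rich proteoglycan genes, whose products coat collagen fibrils, 7 rose and 1 fell. Aspn, which encodes asporin, led them at 5.54 ± 0.18, with 11.08 ± 0.21 in sham and 16.62 ± 0.37 on day 7, followed by Bgn (biglycan, 2.80 ± 0.15) and Lum (lumican, 2.76 ± 0.23). Of 19 basement membrane genes 13 rose and 2 fell (median 0.98), with Col15a1 at 2.48 ± 0.25, Nid1, the gene of the linker protein nidogen, at 2.13 ± 0.21 and Col4a1, a chain of the collagen of all basement membranes, at 2.07 ± 0.22.

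Genes of matrix breakdown rose beside those of matrix synthesis. Of 24 tested proteases and inhibitors 21 rose and 1 fell (median 0.98). Mmp14, which encodes a membrane-bound metalloproteinase, rose by 3.72 ± 0.37, and Mmp2, which encodes the gelatinase that the former activates, by 3.23 ± 0.18. Timp1, the gene of a metalloproteinase inhibitor, rose from 6.02 ± 0.70 to 8.53 ± 0.67. In that gene sham array 1, at 7.06, came close to day 7 array 73, at 7.52, but the groups did not overlap. Adamts8, the gene of a secreted protease, rose by 2.65 ± 0.40. Serpinb1a, which encodes an inhibitor of neutrophil proteases, read 7.21, 6.99, 7.17 and 7.03 in sham and 12.02, 13.21, 12.09 and 13.31 on day 7, without overlap and with arrays 71 and 73 below the other two, and rose by 5.56 ± 0.30.

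Markers of activated fibroblasts and myofibroblasts rose in 18 of 20 tested genes and fell in 0, with a median of 1.48. This list shares members with the matrix lists above, among them Postn, Cthrc1, Comp, Cilp, Thbs4 and Lox. Ddah1, the gene of an enzyme that degrades methylated arginines, rose by 4.64 ± 0.33, Cthrc1, which encodes a secreted collagen triple helix protein of scar fibroblasts, by 3.71 ± 0.29, and Meox1, a transcription factor gene of activated fibroblasts, by 3.21 ± 0.42. Acta2, the gene of smooth muscle actin that myofibroblasts share with vessels, rose by 1.31 ± 0.29, from 13.22 ± 0.67 to 14.53 ± 0.17, a call lost with the spread of all 16 arrays (adjusted p 0.15). Genes of resting fibroblasts were divided, with 10 of 20 called higher and 5 lower. Dpt (dermatopontin, 1.92 ± 0.13) and Tcf21, a transcription factor gene of the fibroblast lineage (1.28 ± 0.13), rose, while Gsn, which encodes the actin-severing protein gelsolin, fell by 1.03 ± 0.08. Tcf21 is in both fibroblast lists. In tissue RNA, more or fewer cells of a type and more or less RNA per cell cannot be told apart, here and in every result that follows.

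Of 29 tested genes of TGF-beta and BMP signalling, the main pathway that drives fibroblasts to make collagen, 17 rose and 1 fell (median 0.30). Among the ligands Tgfb3 rose by 3.13 ± 0.23, Tgfb2 by 1.62 ± 0.13 and Tgfb1 by 0.94 ± 0.13. Fstl1, which encodes a secreted follistatin-like glycoprotein, rose from 11.06 ± 0.33 to 15.49 ± 0.26, and Ltbp2, a latent TGF-beta binding protein gene, by 2.38 ± 0.29. Of 28 growth factor genes of repair 15 rose and 6 fell. Ptn, which encodes the heparin-binding growth factor pleiotrophin, read 5.20, 5.05, 5.13 and 5.27 in sham and 10.15, 10.80, 10.20 and 10.87 on day 7, and the difference of 5.34 ± 0.17 was many times the spread within either group. Igf1 (insulin-like growth factor, 2.40 ± 0.08), Igfbp7 (one of its binding proteins, 2.41 ± 0.15) and Nrg1 (neuregulin, 2.15 ± 0.16) also rose. Among secreted antagonists of Wnt signals, Sfrp1 rose by 3.99 ± 0.36 and Frzb by 3.06 ± 0.30. Only 4 of the 12 tested Wnt genes were called higher and 1 lower, with a median of 0.09. Of the 21 on the array 10 were at background on all 8 arrays.

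**Figure D2:**
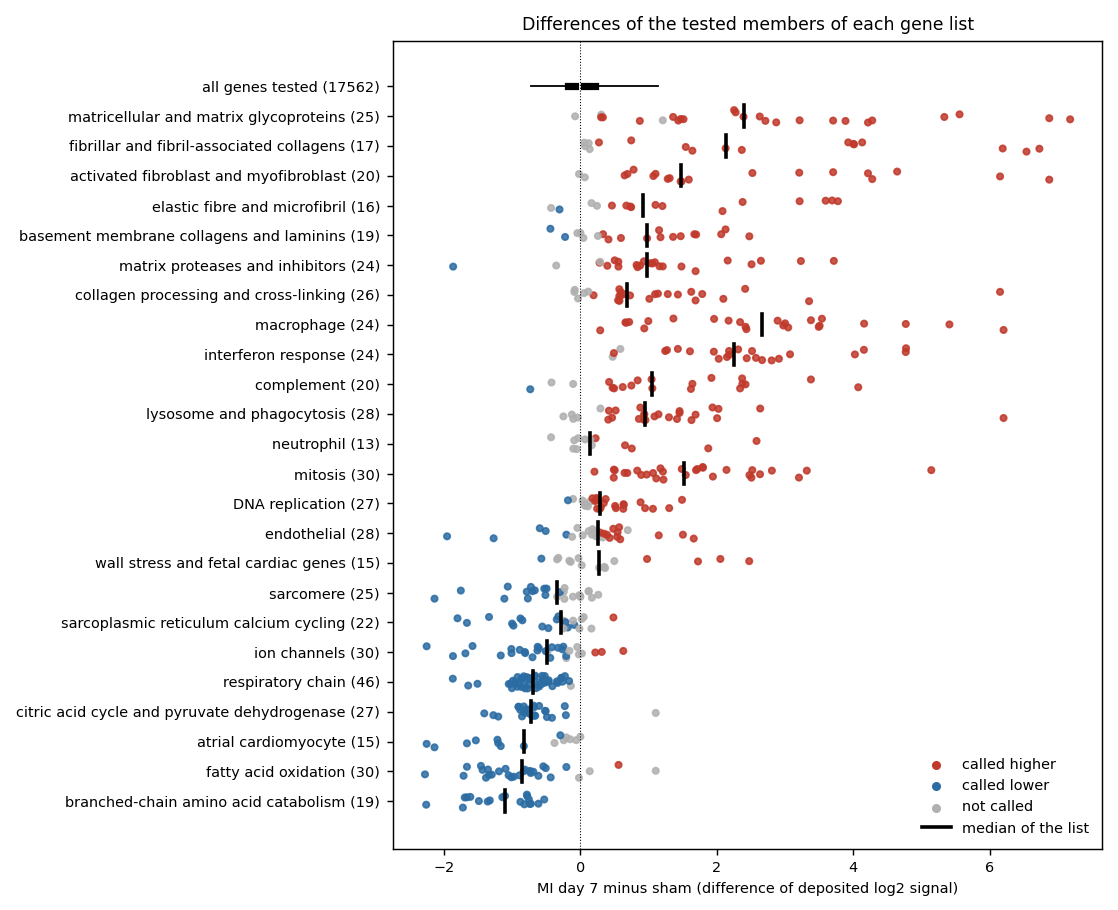
MI day 7 minus sham (x axis, difference of deposited log2 signal) for each tested member of 24 gene lists, 1 point a gene, red where called higher, blue where called lower and grey where not called, with a black tick at the list's median. The top line shows all 17562 tested genes, thick from the 25th to the 75th percentile and thin from the 5th to the 95th, with a white tick at the median. Matrix, macrophage, interferon and mitosis lists lie to the right, and muscle metabolism lists to the left.

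Markers of macrophages, the phagocytes that clear dead cells and later instruct repair, rose throughout. All 24 tested macrophage markers rose, with a median of 2.66, and 18 of them rose by at least 1. Ctss, which encodes the lysosomal protease cathepsin S, read 9.81, 9.76, 9.42 and 9.37 in sham and 15.26, 15.96, 15.03 and 16.92 on day 7. Array 73 was the lowest and array 74 the highest of the day 7 arrays, without overlap with sham, and the difference was 6.20 ± 0.37 (adjusted p 1.24e-05). Mpeg1, which encodes a pore-forming protein of macrophages, rose by 5.41 ± 0.44, Ms4a7, a membrane protein gene of macrophages, by 4.77 ± 0.36, Fcgr1, a receptor gene for antibodies, by 4.16 ± 0.44, and Adgre1, which encodes the F4/80 antigen, by 3.49 ± 0.20.

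The lists for subsets of macrophages gave different counts. Of 15 markers of recruited monocytes 9 rose and 0 fell. Ccr2, the chemokine receptor that draws monocytes to injured tissue, rose by 2.43 ± 0.24 and Ms4a4c by 4.10 ± 0.54, but Ly6c2, the classic surface marker of inflammatory monocytes, was at 15.74 ± 0.17 in sham and 16.04 ± 0.32 on day 7 and was not called. Its close copy Ly6c1 is an endothelial gene, and a probe may not tell the pair apart. Fn1 and Thbs1 are in this list too, and in that of matrix genes. Of 16 markers of resident cardiac macrophages 6 rose and 5 fell (median -0.05), and 3 and 4 in a fit that takes the spread from all 16 arrays. Lyve1, a hyaluronan receptor gene shared with lymphatic vessels, fell from 12.40 ± 0.33 to 10.97 ± 0.40, and Timd4, a receptor gene for dying cells, fell by 0.47 ± 0.10, while Vsig4 and Folr2 rose by 2.37 ± 0.39 and 1.21 ± 0.19, the latter not in the fit of all 16 arrays (adjusted p 0.204). Cd163, at -0.27 ± 0.21, was not called.

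Of 22 genes of lipid-handling macrophages of scars 18 rose and 3 fell (median 0.94). Gpnmb, which encodes a glycoprotein of such cells, had the widest spread of any gene named here, with 5.17, 4.74, 4.96 and 4.72 in sham and 7.00, 9.54, 6.65 and 11.08 on day 7. Arrays 72 and 74 were high and arrays 71 and 73 low, all above sham, and the difference was 3.67 ± 0.88 (adjusted p 0.00977). Apoe (apolipoprotein E, 2.09 ± 0.13), Lipa (lysosomal acid lipase, 2.03 ± 0.25), and Msr1 (a scavenger receptor, 1.87 ± 0.20) rose too. Trem2, a lipid-sensing receptor gene, was not above background on any sham array and rose by at least 0.88. Lysosome and phagocytosis genes rose in 23 of 28 and fell in 0 (median 0.95), with Ctsz, Grn and Ctsc at 2.64 ± 0.22, 2.03 ± 0.23 and 2.01 ± 0.21.

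Markers of other white cells were mostly near background. Of 22 neutrophil markers on the array 10 were not above background on any of the 8 arrays, and of 13 tested 5 rose, with a median of 0.15 that turns to -0.01 over all 22. S100a8, which encodes a protein stored in neutrophils, rose from 4.24 ± 0.30 to 4.90 ± 0.07, but not in the fit of all 16 arrays (adjusted p 0.716). Slfn4, a myeloid Schlafen gene and the largest rise of the list, was not above background on any sham array and rose by at least 2.50. That call was lost in a fit of all 16 arrays (adjusted p 0.0943) and in one of 14 arrays (0.0808), which leaves out day 1 array 13 and day 3 array 31, both with low control separation (0.755 and 0.743). Of 25 lymphocyte markers on the array 19 were at background on all 8 arrays, and of 5 tested 3 rose: Il7r, the interleukin 7 receptor gene, Ighm, an immunoglobulin heavy chain gene, and Klrd1, a natural killer cell receptor gene. Il7r rose by 1.26 ± 0.41 (adjusted p 0.0363), a call lost without any 1 of the sham arrays or array 72, at adjusted p of up to 0.086. Ighm rose by 0.99 ± 0.29 (adjusted p 0.0247), a call lost without sham array 1 or 2 (0.0584 and 0.0608). Without array 74 these differences were 0.83 and 0.65. Klrd1 was not above background on any sham array and rose by at least 0.50, and with low values set to the negative controls its call was lost too (adjusted p 0.0598). Of 13 genes of MHC class II and dendritic cells 7 rose, among them H2-Ab1, an antigen-presenting chain, from 9.69 ± 0.46 to 12.18 ± 0.96.

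Signals that draw and arm these cells rose in part. Of 29 chemokine and cytokine genes 17 rose and 2 fell (median 0.45). Ccl12 and Ccl8, monocyte attractants, rose by 3.70 ± 0.41 and 3.01 ± 0.19, and Cxcl9, an interferon-induced attractant of T cells, by 2.98 ± 0.72. The inflammatory cytokine gene Il1b rose from 4.79 ± 0.19 to 6.19 ± 0.14 (not in the fit of all 16 arrays, adjusted p 0.155), while Ccl2, another monocyte attractant, stood at 5.97 ± 0.45 in sham and 6.33 ± 0.26 on day 7, without a call. Of 20 complement genes 17 rose and 1 fell (median 1.05), with C3ar1, a complement receptor, at 4.07 ± 0.39 and C1qb, a chain of the first component, at 3.38 ± 0.25. Innate sensors and inflammasome genes rose in 17 of 22 and fell in 0 (median 0.90), led by Clec7a, which encodes a receptor for fungal sugars, and the nucleic acid sensor Tlr13 (2.96 ± 0.26 and 2.75 ± 0.25). Cybb, which encodes the catalytic subunit of the phagocyte oxidase, rose by 3.86 ± 0.36, and Hmox1, which encodes the enzyme that breaks down haem, by 2.29 ± 0.37.

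Interferon response genes, which cells switch on when type I or type II interferon binds its receptor, were raised on every day 7 array but to an unequal extent. Of 24 tested genes 22 rose and 0 fell, with a median of 2.25, and 21 rose by at least 1. Ifit1, which encodes a protein that binds foreign RNA, read 6.18, 6.26, 6.66 and 6.23 in sham and 10.87, 9.31, 10.98 and 13.26 on day 7. Array 72 was the lowest and array 74 stood well above the others. The difference was 4.78 ± 0.68 (adjusted p 0.000741). Bst2, which encodes tetherin, a protein that holds virus particles at the cell surface, read 9.32, 10.01, 9.09 and 9.18 and 14.34, 13.16, 13.71 and 15.47, a difference of 4.77 ± 0.45. Usp18 and Ifi27l2a rose by 4.16 ± 0.46 and 4.03 ± 0.58, and the regulators Irf7 and Stat2 by 2.81 ± 0.31 and 2.66 ± 0.47. Isg15 was not called, at 0.59 ± 0.24 (adjusted p 0.0796), nor was Irf1, at 0.47 ± 0.17. Averaged over the 24 genes, the deviation from the sham mean was 2.24 on array 71, 1.60 on array 72, 2.10 on array 73 and 3.49 on array 74, and array 74 was the highest of the 4 in 23 of the 24 genes. The range over the sham arrays was -0.11 to 0.16.

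The start regions of these genes were searched for the letters GAAANNGAAA (N is any base) on both strands, the core of the interferon-stimulated response element, a site bound by STAT and IRF factors. RefSeq start sites on GRCm38.p6 gave 22 windows of 300 bases (250 before and 50 after the start) for 18 of the 25 genes of the list on the array. The letters were in 11 of the 22 windows (50%), from 11 genes, against 1131 of all 32851 windows (3.44%). The motif was chosen after other motifs had been looked at in these windows, so the shares are a description. The 4 stretches below, of genes that rose, lie just before the start and run 5′ to 3′ on the strand of the gene, with each match or run of overlapping matches in capitals (TTTC... where the match is on the other strand). They show the motif as 2 separate copies in Ifit1 and Ifit3 and as overlapping copies in Bst2 and Oas1a.
Ifit1, chr19:34640763-34640852 on the plus strand, bases -126 to -37 from the start: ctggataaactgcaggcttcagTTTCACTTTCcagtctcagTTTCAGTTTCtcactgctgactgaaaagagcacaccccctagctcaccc
Ifit3, chr19:34583366-34583455 on the plus strand, bases -163 to -74 from the start: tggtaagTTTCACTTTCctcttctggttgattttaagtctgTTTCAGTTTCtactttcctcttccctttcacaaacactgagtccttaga
Bst2, chr8:71537548-71537637 on the minus strand, bases -165 to -76 from the start: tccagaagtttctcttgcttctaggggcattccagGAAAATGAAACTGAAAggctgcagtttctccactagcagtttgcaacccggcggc
Oas1a, chr5:120907526-120907615 on the minus strand, bases -90 to -1 from the start: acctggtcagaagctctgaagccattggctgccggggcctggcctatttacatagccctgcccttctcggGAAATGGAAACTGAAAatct
Ifit3 rose by 3.07 ± 0.47 and Oas1a, which encodes an enzyme that senses double-stranded RNA, by 2.57 ± 0.33. The window of Isg15, which was not called, holds 3 overlapping matches.

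**Figure D3:**
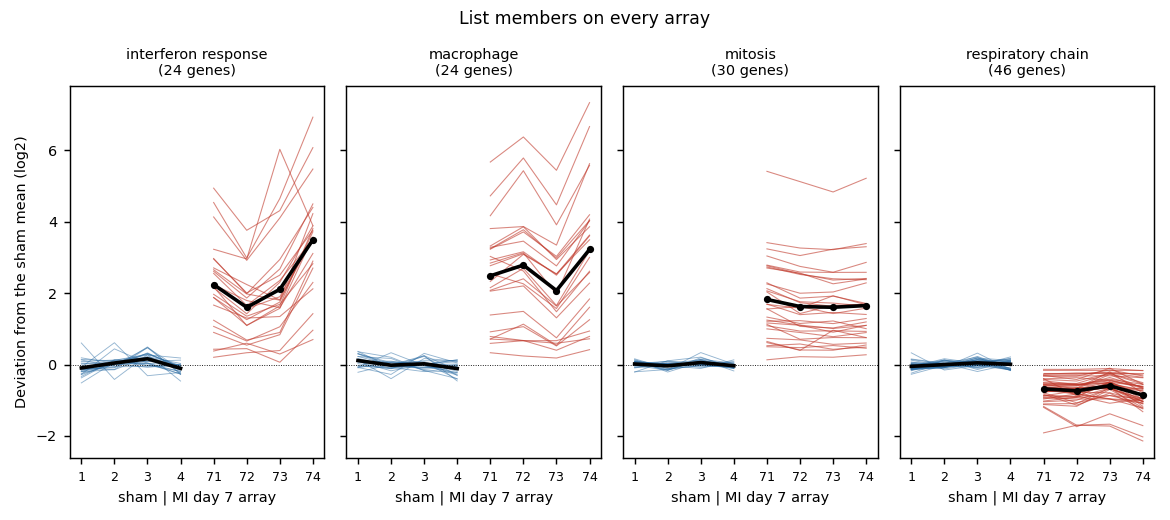
Deviation of each gene from its sham mean (y axis, log2) on sham arrays 1 to 4 (blue) and MI day 7 arrays 71 to 74 (red) for the tested members of 4 lists, 1 thin line a gene, with the mean in black. Lines only join the values of a gene, and arrays have no order. Interferon and macrophage genes differ between the day 7 arrays, with the highest mean on array 74, while mitosis genes lie close together.

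The RNA of every tested mitosis gene rose, 30 of 30 with a median of 1.52. Of these, 2 were not above background in either group. Another limit is that 4 passed the level filter through the day 7 arrays alone and so had to be higher. Without the filter 30 of the 31 on the array were called higher, with a median of 1.49. Mki67, which encodes a protein that coats the chromosomes of dividing cells, read 5.11, 5.43, 5.53 and 5.22 in sham and 10.73, 10.44, 10.15 and 10.54 on day 7. Values within each group were close and far from the other group, and the difference was 5.15 ± 0.14 (adjusted p 3.1e-07). The mitotic motor gene Kif11 rose by 3.32 ± 0.09, the topoisomerase gene Top2a by 3.21 ± 0.07, and Ccna2, which encodes cyclin A, by 2.81 ± 0.10. Genes of DNA replication rose in 20 of 27 and fell in 1, by less (median 0.29), with the helicase gene Mcm6 at 1.49 ± 0.13 and Rrm1, which encodes a subunit of the enzyme that makes the building blocks of DNA, at 1.30 ± 0.09. Of these 27, 2 passed the filter through the day 7 arrays alone and 4 were not above background in either group. Without the filter 21 of the 31 on the array rose and 0 fell (median 0.25). Per array the mitosis list deviated from sham by 1.82, 1.62, 1.60 and 1.65 on arrays 71 to 74, so that the array that was highest for interferon and macrophage genes did not stand out here. These RNAs do not tell which cells were dividing.

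The start regions of mitosis genes were searched in the same way for TTTGAA, on both strands, the letters of the cell cycle genes homology region, through which such genes are held silent in resting cells. They were in 24 of 29 windows (82.8%), from 22 of the 27 genes with a window, against 17.9% of all windows. This motif too was chosen after a wider look at these windows. The stretches below show it, in capitals (TTCAAA where the match is on the other strand), for 4 genes that rose.
Mki67, chr7:135716431-135716520 on the minus strand, bases -141 to -52 from the start: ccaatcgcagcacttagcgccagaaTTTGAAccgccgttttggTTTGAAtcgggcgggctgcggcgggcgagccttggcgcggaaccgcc
Cdk1, chr10:69352913-69353002 on the minus strand, bases -90 to -1 from the start: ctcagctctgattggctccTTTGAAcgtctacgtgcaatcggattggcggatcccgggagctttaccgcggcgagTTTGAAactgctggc
Top2a, chr11:99024190-99024279 on the minus strand, bases -90 to -1 from the start: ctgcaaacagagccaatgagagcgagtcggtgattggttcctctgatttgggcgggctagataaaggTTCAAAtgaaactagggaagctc
Kif11, chr19:37376292-37376381 on the plus strand, bases -90 to -1 from the start: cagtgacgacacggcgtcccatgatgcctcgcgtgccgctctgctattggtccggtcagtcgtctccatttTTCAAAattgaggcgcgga
Cdk1, the gene of the kinase that starts mitosis, rose by 1.07 ± 0.08, and its window holds the letters 2 times, as do those of Mki67 and Top2a.

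Genes of the atrial muscle cell moved the other way. Of 15 tested atrial cardiomyocyte markers 9 fell and 0 rose, with a median of -0.83, and 7 fell by at least 1. Over all 17 on the array, without the level filter, 8 fell and the median was -0.38. Kcnj3, which encodes a subunit of the potassium channel opened by acetylcholine from the vagus nerve, read 12.99, 13.61, 13.62 and 13.71 in sham and 11.12, 10.20, 12.31 and 11.29 on day 7. Array 72 was the lowest and array 73 the nearest to sham, without overlap, and the difference was -2.25 ± 0.39 (adjusted p 0.00197). Kcnj5, the gene of the partner subunit, fell by 1.17 ± 0.24. Myl7 read 18.05, 18.29, 17.62 and 17.93 in sham and 15.93, 15.46, 17.15 and 14.79 on day 7, a difference of -2.14 ± 0.43, again with array 73 nearest to sham and array 74 farthest. Sln fell by 1.66 ± 0.39 and Tbx5, a transcription factor gene of the atria and the conduction system, by 1.20 ± 0.16. Myl4 (-0.24 ± 0.13) and the potassium channel gene Kcna5 (-0.21 ± 0.09) were not called. Of 9 ventricular markers 5 fell, by less than 1 each, and 2 in the fit of all 16 arrays. Of the 5, Myl2 took 1 value on all 4 day 7 arrays, so its size cannot be read. In a fit that takes the spread from all 16 arrays the atrial count fell from 9 to 3 and the adjusted p was 0.0942 for Kcnj3, 0.215 for Myl7, 0.396 for Sln and 0.0518 for Tbx5. In the fit of 14 arrays the count was 7, and Sln was not called (adjusted p 0.0627).

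**Figure D4:**
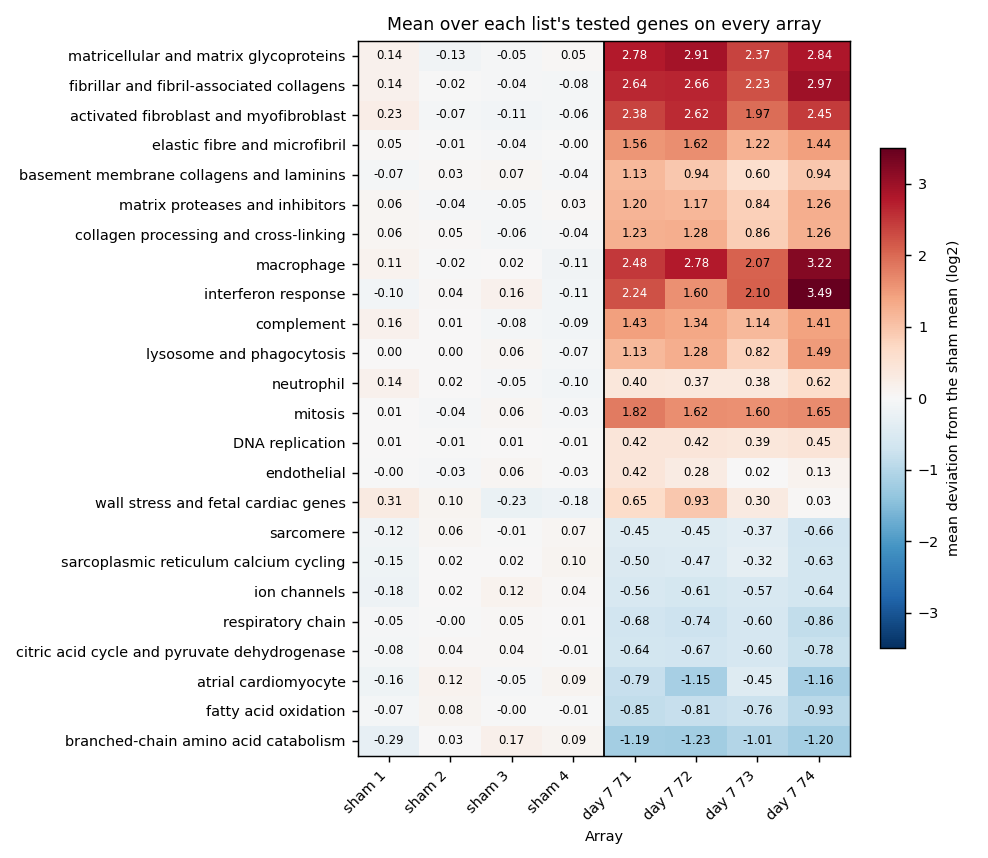
Mean deviation from the sham mean (colour and number, log2) over the tested genes of 24 lists (rows) on each of the 4 sham and 4 MI day 7 arrays (columns). Array 73 has the smallest and array 74 the largest deviation for macrophage genes (2.07 and 3.22) and for respiratory chain genes (-0.60 and -0.86).

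Contractile and excitability genes fell as well. Of 25 sarcomere genes 13 fell and 0 rose (median -0.34), with Tcap, which encodes the cap protein of titin at the Z-disc, at -1.75 ± 0.12. Tnnt2 and Myh6 were on the plateau at the top of the scale and can show no difference. Of 22 genes of calcium cycling in the sarcoplasmic reticulum 14 fell and 1 rose. The 14 include Atp2a2, the gene of the pump that fills this calcium store, at 19.91 in sham and 19.82 on day 7. It lay near the top of the scale and took 1 value on all 4 day 7 arrays, so its size cannot be read. Hrc, which encodes a calcium-binding protein of that store, fell by 1.80 ± 0.12, Ryr2, the gene of its release channel, by 0.85 ± 0.13, and Jph2, which encodes the protein that ties the store to the cell membrane, by 1.00 ± 0.16. Of 30 ion channel genes 21 fell and 3 rose (median -0.50). Besides Kcnj3 the largest falls were in Kcnk3, which encodes a background potassium channel (-1.87 ± 0.13), Kcnip2, which encodes an accessory subunit of the transient outward potassium channel (-1.68 ± 0.25), and Abcc9, which encodes the sulfonylurea receptor of potassium channels closed by ATP (-1.58 ± 0.16). Piezo1, the gene of a stretch-gated channel, rose by 0.63 ± 0.10. The cell contact genes Dsc2 and Dsg2, cadherins of desmosomes, fell by 1.84 ± 0.17 and 0.95 ± 0.15, and so did Gja5, the atrial connexin gene, by 0.29 ± 0.09. The call of Gja5 was lost without the filter (adjusted p 0.0592) and without sham array 2 or 4 or day 7 array 72, 73 or 74 (0.0595 to 0.0921). Dsg2, Ryr2 and Gja5 were not called in the fit of all 16 arrays (adjusted p 0.145, 0.21 and 0.0536). Of 18 intercalated disc genes 6 fell and 3 rose.

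The B-type natriuretic peptide gene Nppb, a marker of stretched heart muscle, went up against this trend. It read 15.22, 14.71, 13.38 and 13.76 in sham and 16.55, 16.86, 16.27 and 15.60 on day 7. All day 7 values exceeded all sham values, but sham array 1 was within 0.38 of day 7 array 74. The difference was 2.05 ± 0.42 (adjusted p 0.00447). Of 15 genes of wall stress and of the fetal heart 4 rose and 1 fell, shares close to or below those of all genes. Actn1, which encodes a non-muscle actinin, rose by 2.48 ± 0.24 and the stretch-responsive gene Xirp2 by 0.98 ± 0.15. Nmrk2, which encodes a kinase of NAD synthesis, rose by 1.73 ± 0.53 (adjusted p 0.0302), a call that was lost without any 1 of the 4 sham arrays or array 71 (adjusted p 0.0564 to 0.0733). Array 72 was the highest in 12 of the 15 genes and array 74 the lowest in 12. Of the 24 interferon genes, array 74 was the highest in 23 and array 72 the lowest in 18. Myh7, the fetal myosin gene, was at 13.55 ± 0.48 and 13.21 ± 0.24, without a call. Corin, which encodes the protease that activates natriuretic peptides, fell by 1.35 ± 0.17, and the clearance receptor gene Npr3 by 1.09 ± 0.25, and both calls were lost in the fit of all 16 arrays (adjusted p 0.121 and 0.105).

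Genes of energy metabolism fell almost throughout. Of 46 respiratory chain genes 45 fell and 0 rose, with a median of -0.70, of 27 genes of the citric acid cycle and pyruvate dehydrogenase 26 fell (median -0.72), of 30 genes of fatty acid oxidation 26 fell and 1 rose (median -0.86), and all 19 genes of branched-chain amino acid breakdown fell (median -1.10). Shares of this size stand against 19.2% of all genes called lower. The branched-chain list holds regulators as well as enzymes, among them Ppm1k, Klf15 and Bckdk, the gene of an inhibiting kinase. Falls of at least 1 numbered 6 in the respiratory chain, 3 in the citric acid cycle, 13 in fatty acid oxidation and 10 in branched-chain amino acid breakdown.

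Acot2, which encodes a mitochondrial thioesterase of fatty acid breakdown, read 13.73, 14.66, 14.35 and 14.18 in sham and 11.74, 12.21, 12.07 and 11.80 on day 7. All day 7 values were below all sham values by more than the spread of either group, and the difference was -2.28 ± 0.20 (adjusted p 6.39e-05). The importers of fatty acids into mitochondria Cpt1b and Cpt2 fell by 1.34 ± 0.11 and 1.71 ± 0.12. Ppara, the gene of the receptor that switches on fatty acid genes, fell from 8.58 ± 0.29 to 6.92 ± 0.05, and its coactivator gene Ppargc1a by 1.35 ± 0.09. Dbt, which encodes a core subunit of the branched-chain keto acid dehydrogenase, read 12.20, 12.69, 13.22 and 13.10 and 10.41, 10.44, 10.71 and 10.61, a difference of -2.26 ± 0.21, without overlap. Its companions Bckdhb and Ppm1k, the latter the phosphatase that activates the complex, fell by 1.69 ± 0.21 and 1.72 ± 0.21.

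In the respiratory chain the largest falls were in Ndufa8, an accessory subunit of complex I (-1.87 ± 0.11), and in Cox6a2, Cox7a1 and Cox8b, the heart and muscle forms of cytochrome oxidase subunits (-1.64 ± 0.16, -1.51 ± 0.12 and -1.05 ± 0.13). The ATP synthase genes Atp5a1 and Atp5b fell by 0.23 ± 0.03 and 0.16 ± 0.04, but both took the same value to within 0.01 on all 4 day 7 arrays, and their sizes are as uncertain as those of the other flat signals. Pdk4, which encodes a kinase that shuts pyruvate out of the cycle, was not called (1.11 ± 0.48). Pdk2, the gene of a kinase of the same kind, had the largest fall of the citric acid cycle list, at -1.41. Of 27 genes of glucose transport and glycolysis 11 fell and 1 rose (median -0.15). The largest falls were in Slc2a4, the insulin-regulated glucose transporter gene, at -1.56 ± 0.16, Ldhb, the heart form of lactate dehydrogenase, at -1.38 ± 0.12 and Pygm, muscle glycogen phosphorylase, at -1.33 ± 0.09. Array 73 had the highest value of the 4 in 31 of the 46 respiratory chain genes and array 74 the lowest in 34, the mirror image of macrophage genes, where array 73 was the lowest in 22 of 24 and array 74 the highest in 23. The part of cell make-up in the metabolic falls was not tested.

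These metabolic counts rest on the spread within the 8 arrays. With the spread taken from all 16 arrays the counts of falls were 10 in the respiratory chain, 4 in the citric acid cycle, 8 in fatty acid oxidation, 9 in branched-chain amino acid breakdown, 3 in the sarcomere and 4 in calcium cycling, with the differences themselves unchanged. Of the metabolic genes above, Cpt1b, Ppargc1a, Ppm1k, Cox7a1, Cox8b, Atp5a1, Atp5b, Pdk2, Slc2a4 and Pygm were not called in that fit (adjusted p 0.0738 to 0.525). In the fit of 14 arrays, without day 1 array 13 and day 3 array 31, they were 45, 26, 26, 19, 12 and 13. That fit was chosen after the data were seen.

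Among the other large falls, Scgb1c1, which encodes a small secretoglobin, led with -2.91 ± 0.22, from 10.35 ± 0.47 to 7.44 ± 0.16. Ptgds, the gene of a prostaglandin D synthase, read 12.96, 12.63, 12.71 and 12.88 in sham and 10.22, 10.42, 9.54 and 9.44 on day 7, a difference of -2.89 ± 0.22, with arrays 73 and 74 the lowest. Slc38a3, an amino acid transporter gene, fell by 2.61 ± 0.15, and Gpr22, an orphan receptor gene of heart, fell by 2.42 ± 0.29. Asb15, which encodes a muscle protein of the ubiquitin pathway, fell by 2.49 ± 0.11 and Gstm7, a glutathione transferase gene, fell by 2.29 ± 0.12. Cytl1, which encodes a secreted cytokine-like protein, fell by 2.75 ± 0.39, with array 73 at 9.33 and the other day 7 arrays at 7.31 to 8.16. Mylk4, a myosin light chain kinase gene, fell by 2.35 ± 0.47. Zbtb16, a transcription factor gene induced by glucocorticoids, fell by 2.36 ± 0.24. Of 25 genes of the glucocorticoid response and the clock 8 fell and 1 rose, among them the clock output gene Dbp (-1.17 ± 0.15). Angptl4, a target of both glucocorticoid and fatty acid receptors, rose by 1.57 ± 0.28. The labels do not give the hour of sampling.

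Genes of vessels were called in both directions. Of 28 endothelial genes 12 rose and 5 fell (median 0.26), and 5 and 1 in the fit of all 16 arrays. Aqp1, the water channel gene of capillaries, fell from 12.56 ± 0.35 to 10.61 ± 0.34, while Aplnr, the apelin receptor gene of sprouting vessels, rose by 1.66 ± 0.29, Vcam1, the gene of an adhesion molecule for white cells, by 1.50 ± 0.16, and Cdh5, the cadherin gene of vessel walls, by 1.15 ± 0.23. Pecam1, at 0.18 ± 0.15, was not called. Of 21 genes of smooth muscle and pericytes 10 rose and 4 fell, with Myl9 at 3.05 ± 0.34 and Tagln at 2.52 ± 0.35, both also made by myofibroblasts. Of 11 endocardial genes 4 rose and 3 fell, and of 7 lymphatic genes 3 rose and 2 fell, with Pdpn (podoplanin) at 1.27 ± 0.20 and Prox1, the master regulator of lymphatic identity, at -0.95 ± 0.25 (not called in the fit of all 16 arrays, adjusted p 0.121). Of 24 genes of mesothelium and epicardium 5 rose and 3 fell, shares at or below those of all genes, with Aldh1a2, whose product makes retinoic acid, at 1.49 ± 0.22. Mast cell, Schwann cell, adipocyte, skeletal muscle and erythroid lists had 5, 6, 10, 9 and 5 tested genes, with 1, 1, 1, 2 and 0 called higher and 0, 1, 3, 1 and 1 lower. These few calls were fragile: Kit, Bpgm, Tubb3, Fabp4, Cidea, Ckm and Myl1 were not called in the fit of all 16 arrays (adjusted p 0.0585 to 0.617), and Bpgm, Tubb3, Cdh19 and Cidea also lost the call without single arrays. Among these lists Dgat2, which encodes an enzyme of fat storage, fell by 2.03 ± 0.24 and Myl1, a fast muscle myosin light chain gene, rose by 1.55 ± 0.15.

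Receptors and enzymes of nerve and hormone signals changed in both directions. Of 20 genes of adrenergic and cholinergic signalling 5 rose and 7 fell, against 4 and 2 in the fit of all 16 arrays. Adcy6, which encodes a main adenylyl cyclase of heart muscle, fell by 1.03 ± 0.16 and Chrm2, the gene of the muscarinic receptor through which the vagus slows the heart, by 0.84 ± 0.17 (adjusted p 0.0625 in the fit of all 16 arrays), while Rgs4, which encodes a protein that shortens G protein signals, rose by 1.25 ± 0.21 and Grk5, the gene of a kinase that silences receptors, by 1.01 ± 0.25. Ace, which encodes the enzyme that makes angiotensin II, rose from 8.86 ± 0.11 to 11.15 ± 0.52, the receptor gene of that hormone, Agtr1a, fell by 0.79 ± 0.14, and Nr3c2, the gene of the aldosterone receptor, by 1.00 ± 0.25. Of 8 genes of this system 2 rose and 4 fell. Of 17 genes of the response to low oxygen 2 rose and 6 fell, among the latter Egln1, which encodes an oxygen sensor, by 1.12 ± 0.07, and Vegfa, the gene of the main growth factor for vessels, by 0.74 ± 0.15. Of 23 immediate early and acute stress genes 5 were called higher, a share near that of all genes, and 1 to 6 in other settings. Genes of the oxidative stress response were called both ways, 9 higher and 7 lower of 26, and 9 and 10 with arrays centred on their medians. Nox4, an oxidase gene of fibroblasts and muscle, rose by 2.38 ± 0.12, and Tfrc, which encodes the receptor for iron uptake, fell by 1.47 ± 0.36. Of 8 sinoatrial node genes 4 rose and 2 fell, and of 14 genes of the natriuretic peptide system 3 and 4 (3 and 1 in the fit of all 16 arrays). The control gene Actb, the gene of cytoplasmic actin, was itself called higher (1.34 ± 0.21), and Gapdh lay on a plateau at 19.35.

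The 6 largest rises and 4 largest falls were followed over the other days in a fit of all 16 arrays, in which 13.3% of genes were called between days 7 and 3 and 26.7% between days 7 and 1. Col1a1 stood at 7.46 ± 0.26 on day 1, 10.90 ± 1.45 on day 3 and 13.65 ± 0.80 on day 7, and day 7 exceeded day 3 by 2.75 ± 0.56 (adjusted p 0.00533). Day 7 also exceeded day 3 for Postn by 2.54 ± 0.67, for Col1a2 by 2.22 ± 0.56 and for Col3a1 by 1.85 ± 0.47. The day 3 arrays were far apart, at 13.37 to 17.48 for Postn, 8.73 to 11.72 for Col1a1 and 9.23 to 12.26 for Col1a2. For Col3a1 they ran from 11.3 to 13.7. The sizes of these 4 differences therefore depend in part on the lowest day 3 array. All 4 genes were higher than on day 1 by 5.55 to 6.19. For Postn the call against day 3 was lost after quantile normalization (adjusted p 0.0545). Fn1 stood at 13.52 ± 1.00 on day 1, 14.70 ± 0.41 on day 3 and 15.79 ± 0.79 on day 7, a difference from day 1 of 2.27 ± 0.44 that was called and from day 3 of 1.09 ± 0.44 that was not. Ctss too was called against day 1 (1.20 ± 0.40) and not against day 3, where the difference was only 0.09 ± 0.40. None of the 4 falls was called between day 7 and an earlier day, with adjusted p of 0.0552 or more, although Ptgds was called against day 1 when day 1 array 13 or day 3 array 31 was left out (adjusted p 0.0233 and 0.00916). Slc38a3 stood at 6.57 ± 0.90 on day 1, 6.29 ± 0.91 on day 3 and 7.34 ± 0.16 on day 7, all below 9.96 ± 0.29 in sham.

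**Figure D5:**
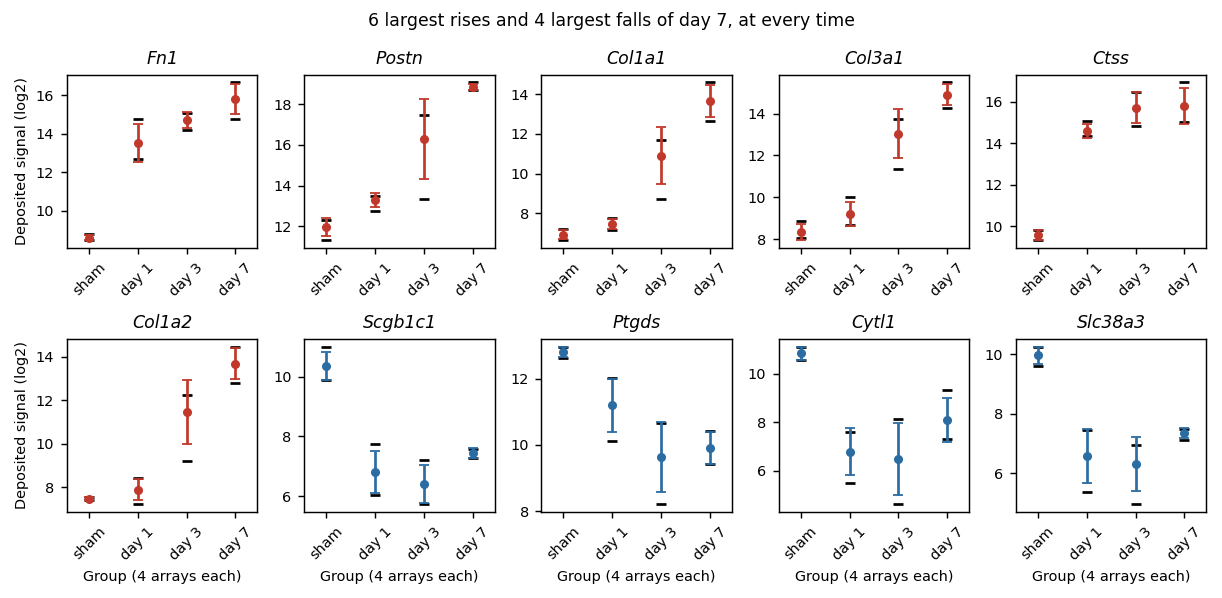
Deposited log2 signal (y axis) of the 6 largest rises (red) and 4 largest falls (blue) of day 7 in sham and 1, 3 and 7 days after infarction, as mean with SD (n = 4 arrays a group) and with black ticks at the lowest and highest array. The collagen genes and Postn climb from day 1 to day 7. Fn1 and Ctss are already above sham and the 4 falls already below sham on day 1. After day 1 the means of Fn1 and Ctss are higher still and that of Ptgds is lower.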

How the data were processed

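RNA of mouse atria was measured on 16 arrays, of which the 4 MI day 7 and 4 sham arrays are reported here. The values are the authors' deposited log2 signals, 1 column per array, made with Affymetrix Expression Console per the submitters' processing notes. Background correction, summarisation and scaling have no description there, and no counts or scan dates were used. The labels name a 3' mouse array, while the table's transcript clusters fit another design. Of 72688 table entries, 6732 controls were set aside, and 30604 carried 1 gene symbol (2146 carried several and 33206 none). The entry with the highest mean stood for a gene with several. A gene counted as not above background in a group when all its values were at or below the median negative control.

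The 8 arrays were fitted alone with limma 3.58.1 in R 4.3.3 (lmFit, eBayes with a trend), with Benjamini-Hochberg adjustment over 17562 genes at 0.05. The fit was tested on simulated data. Alternatives changed the arrays, scaling, filter, variance model, entry per gene and low end of the scale. Members, lists and motifs were chosen with earlier results of these data known. The text names the 14 largest rises and 12 largest falls, up to 4 called members per list with the largest differences, and Nppa, Nppb, Actb and Gapdh. Other genes were named for their known role after their values were seen. Sequences are from RefSeq on GRCm38.p6. The number of arrays limits the precision, with a median SE of 0.10 (log2).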

Additional observations from a re-analysis of the deposited data

Results flagged for a closer look

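In 21 of 432 combinations of a named gene and a group, 1 array lay far from the other 3 by Dixon's test at its 95% critical value, which chance alone gives in about 1 of 20. The 9 in sham were on array 1 for Kcnj3 (12.99), Timp1 (7.06), Frzb (6.49) and Adcy6 (8.87), on array 2 for H2-Ab1 (10.37), on array 3 for Cox7a1 (17.33) and Ifit1 (6.66), and on array 4 for Col4a2 (7.16) and Ctsz (7.45). Of the 12 on day 7, array 73 was below the others for Actn1 (9.06), Bgn (15.31), Timp1 (7.52), Fstl1 (15.10), Kit (5.39) and P4hb (14.09) and above them for Npr3 (10.10). Array 72 was above the others for Xirp2 (14.65) and Cpa3 (5.85), and array 74 was above them for Cacna1d (5.49) and Ighm (7.17) and below them for Corin (12.42).

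Genes that differed between day 7 and an earlier day by the test of that difference were Col1a1 (2.75 above day 3 and 6.19 above day 1), Postn (2.54 and 5.55), Col1a2 (2.22 and 5.79), Col3a1 (1.85 and 5.70), Fn1 (2.27 above day 1) and Ctss (1.20 above day 1).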

How the results depend on the processing

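Calls over all genes numbered 7144. With the spread taken from all 16 arrays they numbered 4620, of which 1861 were lower against 3368, and in the added fit of 14 arrays, chosen after seeing the data, 7487, with 6876 of the 7144 among them. With arrays centred on their medians 5230 genes were called lower and 2954 higher. Leaving out 1 array at a time gave 5882 to 7103 calls, and the other settings gave 5465 (stricter filter) to 7787 (array weights). Of 213 called genes among the 218 named by rule, 50 lost the call in some setting, 42 of them in the fit of all 16 arrays and 16 elsewhere, and 0 changed direction. The added fit lost Sln, Slfn4, Upk1b and Fabp4. Of 59 lists 7 had their balance of higher and lower calls turned in some setting: oxidative stress with centred arrays, resident macrophage, adrenergic and natriuretic in the fit of all 16 arrays, and mast cell, mesothelial and erythroid with 1 array left out. Medians changed sign in 12 lists: oxidative stress, lymphatic, sinoatrial, Wnt, neutrophil, erythroid, resident macrophage, skeletal muscle, hypoxia, mast cell, Schwann cell and natriuretic. Without the level filter medians were lower for collagens (1.55), basement membrane (0.50), proteases (0.56), lymphocytes (0.13) and cartilage (0.01). No paired analysis was possible because the groups share no replicate numbers. Without day 1 array 13 or day 3 array 31 the day comparisons kept their calls except that of Ptgds against day 1, and quantile normalization called Fn1 against day 3 (1.65, adjusted p 0.0355). Genes on the plateau at the top of the scale and at background at its foot limit what the signal can show.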

Other observations

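Further gene families, a few of whose members are also in the lists, were looked at after their values were seen, and their counts carry no test. Mitochondrial ribosomal proteins, which translate the few proteins encoded in mitochondrial DNA, fell in 65 of 74 tested genes and rose in 0, with a median of -0.50 (70 fell with centred arrays and 45 in the fit of all 16 arrays). Mrpl55 fell by 1.35 ± 0.13 and Mrpl37 by 1.24 ± 0.09. Proteins of the cytosolic ribosome went the other way but by less, with 22 of 35 higher and 1 lower (14 higher after quantile normalization or centring). Their median was 0.24, and 0 rose by at least 1. The 1 that fell was Rpl3l (-1.73 ± 0.12), the form of a large subunit protein made in heart and skeletal muscle. Genes for the synthesis or binding of coenzyme Q, the electron carrier of the respiratory chain, fell in 9 of 11. Coq3, for an enzyme of synthesis, was at -1.44 ± 0.10 and Coq10a, for a binding protein, at -1.41 ± 0.10. Mitochondrial carriers of the SLC25 family were called lower in 17 of 36 and higher in 4, with the acylcarnitine carrier gene Slc25a20, which the fatty acid list holds too, at -1.43 ± 0.09.

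Glutathione transferases, which detoxify by coupling compounds to glutathione, fell in 15 of 19 and rose in 0 (median -0.78), with Gstm1 at -2.17 ± 0.15 and Gstk1 at -2.16 ± 0.16. The ankyrin repeat and SOCS box family, which marks proteins for degradation, fell in 10 of 16 genes, with Asb14 at -1.63 ± 0.17 beside Asb15 (Asb14 was not called in the fit of all 16 arrays, adjusted p 0.0804). Families known to be induced by interferon rose: all 9 interferon-inducible HIN genes (Ifi204 by 3.86 ± 0.46), all 7 guanylate-binding proteins (of which Gbp2 and Gbp3 are in the interferon list), all 6 immunity-related GTPases (Iigp1 by 2.96 ± 0.56) and 11 of 12 class I MHC genes (H2-K1 by 2.72 ± 0.27). These families hold near-identical copies, which a probe may not tell apart. The class I count includes B2m, the gene of the shared light chain, and 12 of the 24 on the array were tested. Some of its rises began low: H2-Q1, H2-Q10 and H2-Bl had sham means of 4.25, 4.40 and 4.34. The median negative control averaged 4.49 on the sham arrays. C1qtnf3, which encodes a secreted protein with a complement-like domain, read 3.64, 3.62, 3.77 and 3.65 in sham, not above background on any array, and 8.69, 8.22, 8.42 and 8.91 on day 7, a rise of at least 4.07. Box C/D small nucleolar RNAs mostly guide chemical marks on ribosomal RNA and mostly lie in introns of host genes. Of 42 tested, 22 were called higher and 3 lower (21 and 4 with centred arrays). The sister class, box H/ACA, had 3 of 16 higher and 1 lower, with a median of 0.06. Over all genes 21.5% were called higher and 19.2% lower.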
